A study of Mus musculus with 4 samples.

Results

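Nfkbie and Mymx lie close together on mouse chromosome 17, and both rose in cultured myotubes treated with EDA-A2. The 10 other protein-coding genes of the same stretch are described here: Spats1, Aars2, Tcte1, Tmem151b, Slc35b2, Hsp90ab1, Slc29a1, Capn11, Tmem63b and Mrpl14. They were taken by name and position, 10 genes of the 53647 in the count tables, and they span 263 kb, from 45747150 to 46010480 of chromosome 17 in the GRCm39 assembly. The stretch was selected on the counts of these same libraries, in which Nfkbie and Mymx had already been seen to rise, so the levels and fold changes of its genes are given as a description. The calls of the fit over all genes are given for them as counts, beside the share of all genes called, and support nothing about the stretch.

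The experiment was bulk RNA sequencing of wild-type mouse primary myotubes, the multinucleated fibres that form when cultured myoblasts fuse. Myoblasts came from limb muscles of pups aged 2-3 days and were put in differentiation medium with horse serum. The treated group received recombinant EDA-A2, the ectodysplasin isoform that binds the receptor EDA2R, at 250 ng/mL for 24 h, and the control group did not. Both groups were harvested 72 h after differentiation began, with 2 libraries in each. The sources used here do not say what the control medium contained, nor whether the 2 libraries of a group came from separate animals or cultures, so the spread within a group may be technical.

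EDA2R belongs to the TNF receptor superfamily and signals to NFκB. NFκB dimers are held inactive by IκB proteins, and many IκB genes are themselves switched on by NFκB, which closes a feedback loop. Nfkbie encodes one of these inhibitors, IκBε. Mymx encodes myomixer, a small membrane protein that myoblasts need in order to fuse. Genes that lie side by side on a chromosome can share regulatory sequence, a start region or a domain of open chromatin, or can be unrelated in function and control.

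Depth was even, between 29444155 and 29746863 counts on genes per library, and 0 counts in a library allowed up to 0.101 to 0.102 CPM, the count scaled to the library's total on genes (a limit of 3 counts, which covers counting error only). All 8 myotube markers on the list used (Myog, Ckm, Myh3, Acta1, Tnnt3, Des, Mymk and Ttn) were above 1 CPM. Their summed level ran from 20100 to 21300 CPM in control and from 15500 to 15700 after EDA-A2, and 2 of the 8 were called lower. The culture thus carried the markers of differentiated muscle in both groups, at a lower sum after EDA-A2. Myoblast markers summed to 257 to 300 and 229 to 240, and fibroblast markers to 217 to 358 and 195 to 236, with Lum at or under 1 CPM, and 1 gene of each of these lists was called lower. Macrophage markers summed to 8.0 to 9.33 and 9.16 to 12.5, with Adgre1, Csf1r and Ptprc at or under 1, and 0 of 4 endothelial markers passed 1. Dividing cell markers summed to 655 to 779 and 716 to 727. In bulk RNA, a change in the number of cells of a type and a change in RNA per cell cannot be told apart, and the part that these marker levels played in the values below was not tested.

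Across the stretch, 3 neighbours were called higher after EDA-A2: Slc29a1, Capn11 and Tmem63b. These calls came from the edgeR quasi-likelihood test over all 15173 genes tested, at a Benjamini-Hochberg adjusted p of 0.05, where 4.57% of genes were called in either direction, 2.45% higher and 2.13% lower. Of the 9 neighbours tested, 3 were called higher and 6 were not called, and Tcte1 had no counts to test. Both EDA-A2 libraries lay above both control libraries for 6 of the 9 (Spats1, Aars2, Hsp90ab1, Slc29a1, Capn11 and Tmem63b), and the groups overlapped for Tmem151b, Slc35b2 and Mrpl14. The same separation was seen for 22.8% of all genes tested. All 9 fitted log2 fold changes were above 0, beside 49.5% of all genes tested, and their median was 0.12, beside -0.00 for all genes. With any 1 library left out, 7 or 8 of the 9 were above 0, since Slc35b2, Tmem151b or Mrpl14 turned, and the median was 0.19 to 0.22.

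The layout of the stretch is compact. From low to high coordinates the protein-coding genes are Spats1, Aars2, Tcte1, Tmem151b, Nfkbie, Slc35b2, Hsp90ab1, Slc29a1, Mymx, Capn11, Tmem63b and Mrpl14. Among the 10 neighbours, 4 are read from the plus strand (Aars2, Tcte1, Slc35b2 and Mrpl14) and 6 from the minus strand. Nfkbie, on the plus strand, ends 138 bases before Slc35b2 begins on the same strand. Mymx, on the minus strand, lies 505 bases upstream of Slc29a1, and Tmem63b lies 793 bases upstream of Capn11, both pairs on 1 strand. Tmem63b and Mrpl14 point away from each other, with annotated start sites 7 bases apart.

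The starting regions of these genes are shown because Nfkbie is a known NFκB target, and the letters in front of each start can be read beside its fold change. RefSeq promoter sequences (GRCm38.p6, the 250 bases before each start) were found for 8 of the 10 neighbours and for Nfkbie, and those of Hsp90ab1, Tcte1 and Mymx are not used here. Coordinates of these sequences are in GRCm38.p6 and are not to be set beside the GRCm39 positions used for the genes. The κB consensus, the decamer bound by NFκB dimers, was searched on both strands as GGGRNNYYCC (R is A or G, Y is C or T, N is any base). It was found in front of Nfkbie and of 5 neighbours: Tmem151b, Slc35b2, Slc29a1, Mrpl14 and Tmem63b. Over all promoter windows of this length in the mouse table, 7.25% of 32851 held it. A match is a description of letters and not evidence of binding. The window of Nfkbie, chr17:45555450-45555699 on the plus strand, is printed whole with its κB letters in capitals, 106 to 97 bases before the start.
Nfkbie: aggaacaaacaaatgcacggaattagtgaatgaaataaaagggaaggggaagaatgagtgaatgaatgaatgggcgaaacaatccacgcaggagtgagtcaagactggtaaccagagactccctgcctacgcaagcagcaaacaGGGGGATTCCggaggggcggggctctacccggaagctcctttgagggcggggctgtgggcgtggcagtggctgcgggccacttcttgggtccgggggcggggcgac

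The κB letters of the neighbours, in capitals, are shown with the bases around them, each on the strand of its gene. Those of Slc35b2 match the pattern when read on the opposite strand. They lie on chromosome 17 at chr17:45563819-45563848 for Slc35b2, chr17:45595269-45595298 for Slc29a1, chr17:45549820-45549849 for Tmem151b, and chr17:45686394-45686422 and chr17:45686329-45686358 for Tmem63b.
Slc35b2: agtcccaactGGAGTTCCCCaggggaaccg
Slc29a1: tctgggtaggGGGACTCTCCttttgtgggg
Tmem151b: gaaagggtgcGGGGAGCCCCtgttgcttct
Tmem63b, far: taacagcctGGGAATCTCCCgccacggac
Tmem63b, near: ctgcgcgccaGGGGTTCTCCgtgagtgcgc

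Slc29a1 had 8 promoter windows in the table, for as many annotated starts, and 1 of the 8 held the letters, 42 to 33 bases before its start. The capitals of the far Tmem63b stretch cover a pair of overlapping matches, 195 to 186 and 194 to 185 bases before the start, on opposite strands. The near stretch, 130 to 121 bases before the Tmem63b start, lies in the 130 bases that the windows of Tmem63b and Mrpl14 share, and on the other strand it is the match of Mrpl14, 10 to 1 bases before that start. Of the 3 neighbours called higher, Slc29a1 and Tmem63b had the letters and Capn11 did not. Of the others with a window, Tmem151b, Slc35b2 and Mrpl14 had them, and Spats1 and Aars2 did not. The match of Mrpl14 is the same site as the near one of Tmem63b. Whether the letters bear on the fold changes was not tested.

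The window of Capn11, chr17:45659310-45659559 on the minus strand, is printed because this gene had the largest fold change of the 10. It held 3 E-boxes (CANNTG, the letters bound by myogenic helix-loop-helix factors, found in 66.2% of all windows) and 1 match to GAANNTTC, a pair of facing heat-shock units found in 6.69%, on both strands since both patterns read the same in reverse. These are in capitals, and the last E-box shares 1 base with the heat-shock letters.
Capn11: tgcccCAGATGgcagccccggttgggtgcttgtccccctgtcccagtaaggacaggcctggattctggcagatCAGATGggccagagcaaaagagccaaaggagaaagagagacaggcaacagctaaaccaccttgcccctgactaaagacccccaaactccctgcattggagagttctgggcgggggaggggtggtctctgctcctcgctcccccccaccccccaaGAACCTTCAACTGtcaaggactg

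**Figure D1:**
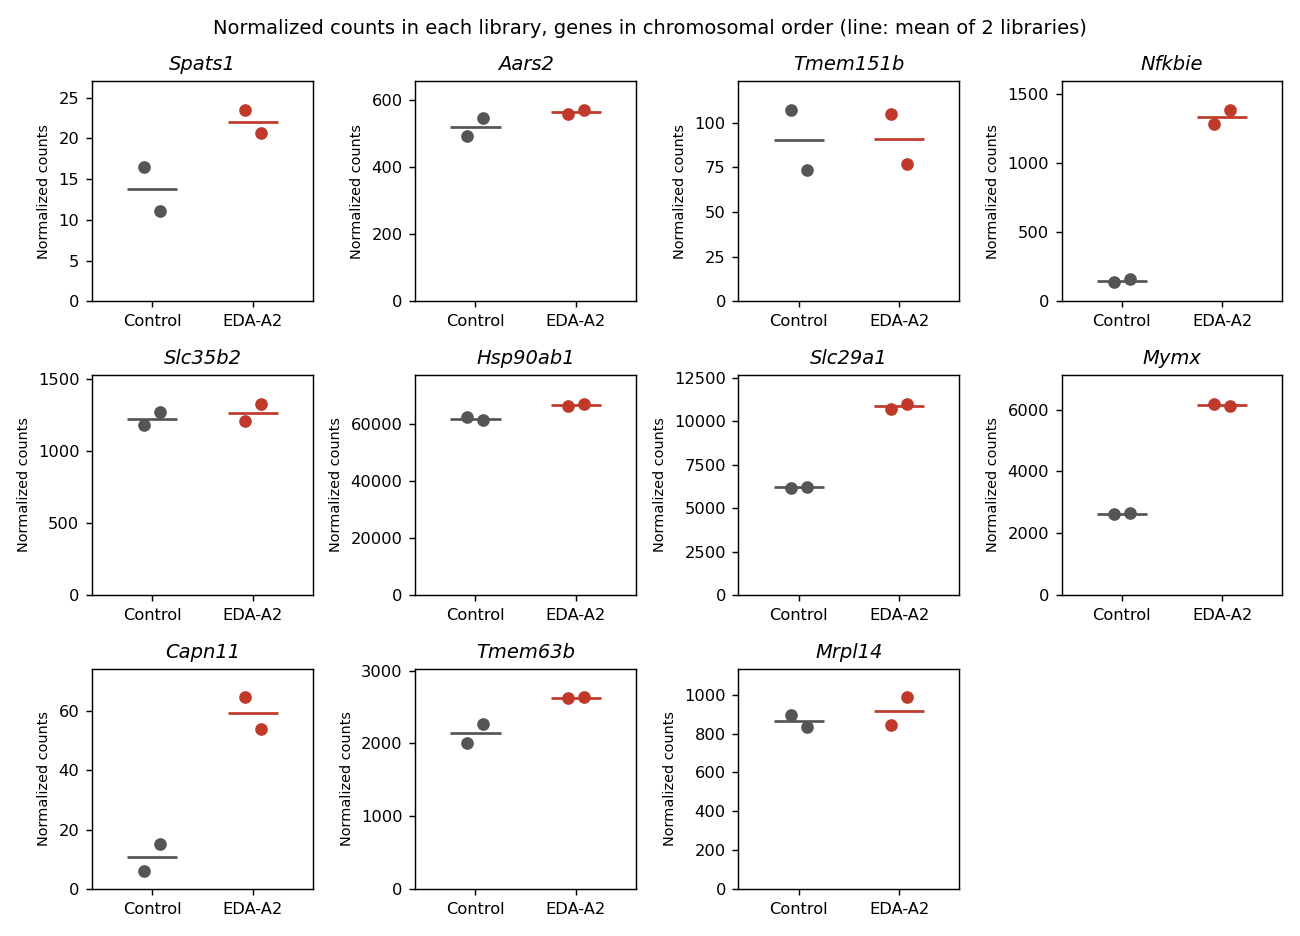
Normalised counts (y axis, from 0, a scale of its own in each panel) in the 2 control and 2 EDA-A2 libraries for 9 neighbours with counts and for Nfkbie and Mymx, in chromosomal order; points are libraries and lines are the means of 2. The groups are apart and the EDA-A2 points higher for Spats1, Aars2, Nfkbie, Hsp90ab1, Slc29a1, Mymx, Capn11 and Tmem63b, and overlap for Tmem151b, Slc35b2 and Mrpl14.

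Nfkbie and Mymx set the scale for their neighbours. Nfkbie had 137.0 and 163.4 normalised counts in control replicates 1 and 2, and 1283 and 1388 in EDA-A2 replicates 1 and 2. Normalised counts are counts divided by the effective library size from TMM factors and multiplied by its mean. Nfkbie was 8.89-fold higher after EDA-A2, a log2 fold change of 3.15 with a standard error of 0.11. Mymx had 2619 and 2652 normalised counts in control and 6193 and 6120 after EDA-A2, 2.34-fold higher, with a log2 fold change of 1.22 and a standard error of 0.07. Between them lie the starts of Slc35b2, Hsp90ab1 and Slc29a1.

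Slc29a1 (ENSMUSG00000023942, 45896125-45910733, minus strand) encodes the equilibrative nucleoside transporter ENT1, which carries adenosine and other nucleosides across the plasma membrane. It had 6162 and 6232 normalised counts in control and 10682 and 11006 after EDA-A2. Both treated libraries were far above both controls, and the replicates of each group lay close together. The means were 6197 ± 49.2 and 10844 ± 229 (SD, n = 2), a 1.75-fold difference and a log2 fold change of 0.81 with a standard error of 0.07. Its start site is 40.1 kb from that of Nfkbie and 6198 bases from that of Mymx, the gene just upstream of it on the same strand. Of the noncoding transcripts annotated on the other strand of Slc29a1, the 1 in the count tables, Gm17080, shares 412 exonic bases with it and had 0 to 2 counts per library.

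Capn11 (ENSMUSG00000058626, 45941130-45970291, minus strand) encodes calpain 11, a calcium-dependent cysteine protease known mainly from testis. It had 6 and 15 counts in control and 66 and 55 counts after EDA-A2, or 6.18 and 15.1 against 64.7 and 54.1 when normalised. The gene was at a low level in every library, and the treated libraries were both above the controls. Control replicate 1 was under the 10 counts of the filter, so the gene entered the test only with the treated libraries. With at least 10 counts asked of every library it was not tested. The means were 10.7 ± 6.32 and 59.4 ± 7.52 normalised counts (SD, n = 2), a 5.57-fold difference and a log2 fold change of 2.46 with a standard error of 0.38. The size rests on the controls: the log2 fold change was 1.96 without control replicate 1 and 3.24 without control replicate 2. Its start site is 104 kb from that of Nfkbie, farther than those of 7 neighbours.

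Tmem63b (ENSMUSG00000036026, 45971085-45997839, minus strand) encodes an ion channel of the OSCA/TMEM63 family, which opens on membrane stretch or osmotic change. It had 2010 and 2271 normalised counts in control and 2622 and 2634 after EDA-A2. The control libraries differed from each other more than the treated ones did, and both treated libraries were above them. The means were 2141 ± 184 and 2628 ± 8.36 (SD, n = 2), a 1.23-fold difference and a log2 fold change of 0.30 with a standard error of 0.08, beside 0.243 for the smallest rise called in the whole table.

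The calls of these 3 genes differed in how far they held when 1 library was left out. Without EDA-A2 replicate 1, and again without EDA-A2 replicate 2, Slc29a1 and Capn11 were called and Tmem63b was not. Without either control replicate, none of the 3 was called. Most calls across the whole table were lost as well, so the loss was not particular to these 3. Without control replicate 1, the log2 fold changes were 0.80 for Slc29a1, 1.96 for Capn11 and 0.21 for Tmem63b. Without control replicate 2, they were 0.81, 3.24 and 0.38. On all 4 libraries, the DESeq2 Wald test called the same 3, and edgeR without a filter beyond 1 count called Slc29a1 alone.

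Mrpl14 (ENSMUSG00000023939, 45996373-46010480, plus strand) encodes a protein of the large subunit of the mitochondrial ribosome and shares its start region with Tmem63b. It had 898.4 and 832.9 normalised counts in control and 846.9 and 986.7 after EDA-A2. The groups overlapped, with the lower treated library below the higher control. Its log2 fold change was 0.08 with a standard error of 0.09, and it was -0.03 at the lowest and 0.19 at the highest when 1 library was left out. The 2 genes share 1103 exonic bases on opposite strands, 23.7% of the exonic bases of Mrpl14 and 8.87% of those of Tmem63b. The library kit kept strand, but the strand setting of the counting is not given in the sources used here, so reads in the shared bases cannot be assigned with certainty.

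Hsp90ab1 (ENSMUSG00000023944, 45878552-45891949, minus strand) encodes HSP90β, the constitutive cytosolic HSP90 chaperone. It had 62186 and 61301 normalised counts in control and 66263 and 67003 after EDA-A2. It had by far the most counts of the 10, and the treated libraries were both higher by a small step. The means were 61744 ± 626 and 66633 ± 524 (SD, n = 2), 7.92% higher, with a log2 fold change of 0.11 and a standard error of 0.07, and it was not called. Leaving out any 1 library moved the log2 fold change between 0.10 and 0.12. HSP90 genes and their processed copies are alike in sequence, and reads that did not map uniquely (4.56 to 4.76% of a library) were not counted. The share of Hsp90ab1 reads lost in this way was not tested, and its level is uncertain for that reason.

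Slc35b2 (ENSMUSG00000037089, 45874800-45880913, plus strand) encodes the Golgi transporter for PAPS, the sulphate donor of sulphotransferases. Of the neighbours downstream of Nfkbie it is the nearest, with start sites 8.19 kb apart. It had 1178 and 1267 normalised counts in control and 1203 and 1327 after EDA-A2. The groups interleaved, and the log2 fold change was 0.05 with a standard error of 0.08, from -0.02 to 0.12 when 1 library was left out. Slc35b2 and Hsp90ab1 run towards each other and share 266 exonic bases on opposite strands, 6.73% of those of Slc35b2.

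Tmem151b (ENSMUSG00000096847, 45852878-45860645, minus strand), a transmembrane protein gene, is the nearest of all, with its start 5.96 kb from that of Nfkbie and pointing away from it. It had 107.2 and 73.6 normalised counts in control and 104.9 and 76.7 after EDA-A2. The 2 libraries of a group differed more than the groups did. The log2 fold change was 0.01 with a standard error of 0.23, and it ran from -0.24 to 0.30 when 1 library was left out. These libraries could miss a difference of that size, and the range is not a limit of detection.

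Aars2 (ENSMUSG00000023938, 45817749-45832900, plus strand) encodes the mitochondrial alanyl-tRNA synthetase, which charges alanine for translation inside mitochondria. It had 492.5 and 546.6 normalised counts in control and 557.7 and 570.0 after EDA-A2. The treated libraries were above the controls by less than the controls differed from each other. The log2 fold change was 0.12 with a standard error of 0.10, from 0.04 to 0.19 when 1 library was left out.

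Spats1 and Tcte1 are genes known mainly from the male germ line. Spats1 (ENSMUSG00000023935, 45747150-45786341, minus strand), a spermatogenesis-associated serine-rich protein gene, had 16 and 11 counts in control and 24 and 21 after EDA-A2. Its log2 fold change was 0.68 with a standard error of 0.40, from 0.42 to 0.98 when 1 library was left out, and it was not called. A well-expressed noncoding transcript, B230354K17Rik, runs across it on the other strand and covers 39.6% of its exonic bases (5215 bases). B230354K17Rik had 1138 and 1171 normalised counts in control and 1187 and 1261 after EDA-A2. Whether any of its reads entered the Spats1 counts was not tested. Tcte1 (ENSMUSG00000023949, 45834343-45853611, plus strand), a subunit of the nexin-dynein regulatory complex of cilia and flagella, had 0 counts in all 4 libraries.

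**Figure D2:**
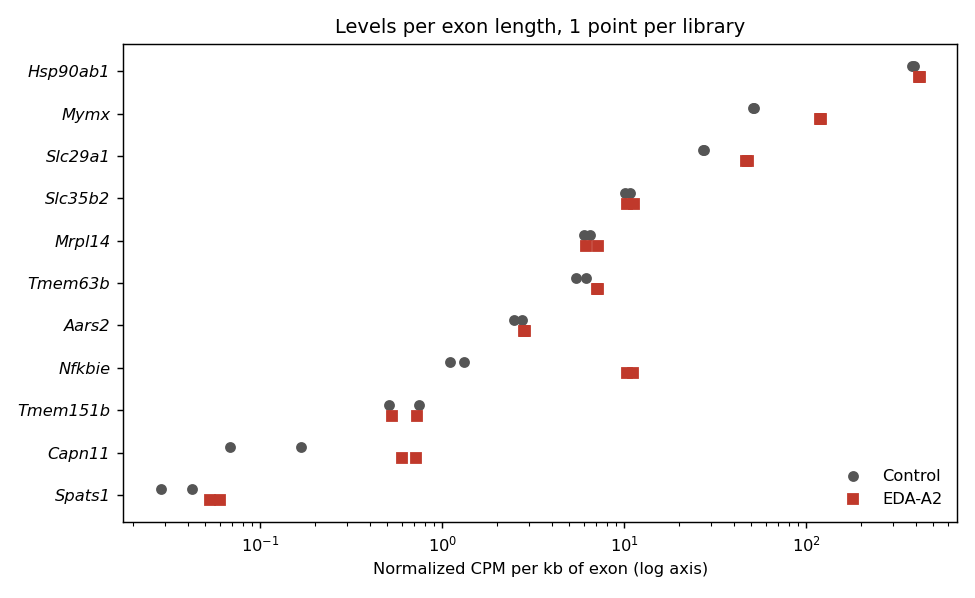
Levels per length (x axis, log scale: normalised CPM per kb of exon) for 9 neighbours, Nfkbie and Mymx, 1 point per library, ordered by the control mean. Hsp90ab1 stands highest at 386 in control and Spats1 lowest at 0.0354, and the treated points are visibly to the right for Nfkbie, Mymx, Slc29a1, Capn11 and Spats1.

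Levels across the stretch spanned several orders of magnitude. In normalised CPM per kb of annotated exon, the control means were 386 ± 3.91 for Hsp90ab1, 27.1 ± 0.215 for Slc29a1, 10.4 ± 0.537 for Slc35b2, 6.28 ± 0.336 for Mrpl14 and 5.81 ± 0.501 for Tmem63b (SD, n = 2). Below these came Aars2 at 2.61 ± 0.192, Tmem151b at 0.625 ± 0.164, Capn11 at 0.118 ± 0.0699, Spats1 at 0.0354 ± 0.00979 and Tcte1, with no counts. The neighbours in this order were apart in their libraries except Mrpl14 (6.52 and 6.04) and Tmem63b (5.46 and 6.17), which overlapped. After EDA-A2 the level of Slc29a1 was 47.4 ± 1.0, still second to that of Hsp90ab1 at 417 ± 3.28. Capn11, at 0.715 and 0.598 in the treated libraries, came to overlap Tmem151b, at 0.726 and 0.53. Mymx was at 51.1 in control and 119 after EDA-A2, and Nfkbie at 1.21 and 10.8. The genes called higher thus included an abundant one, a middling one and one near the limit of counting.

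**Figure D3:**
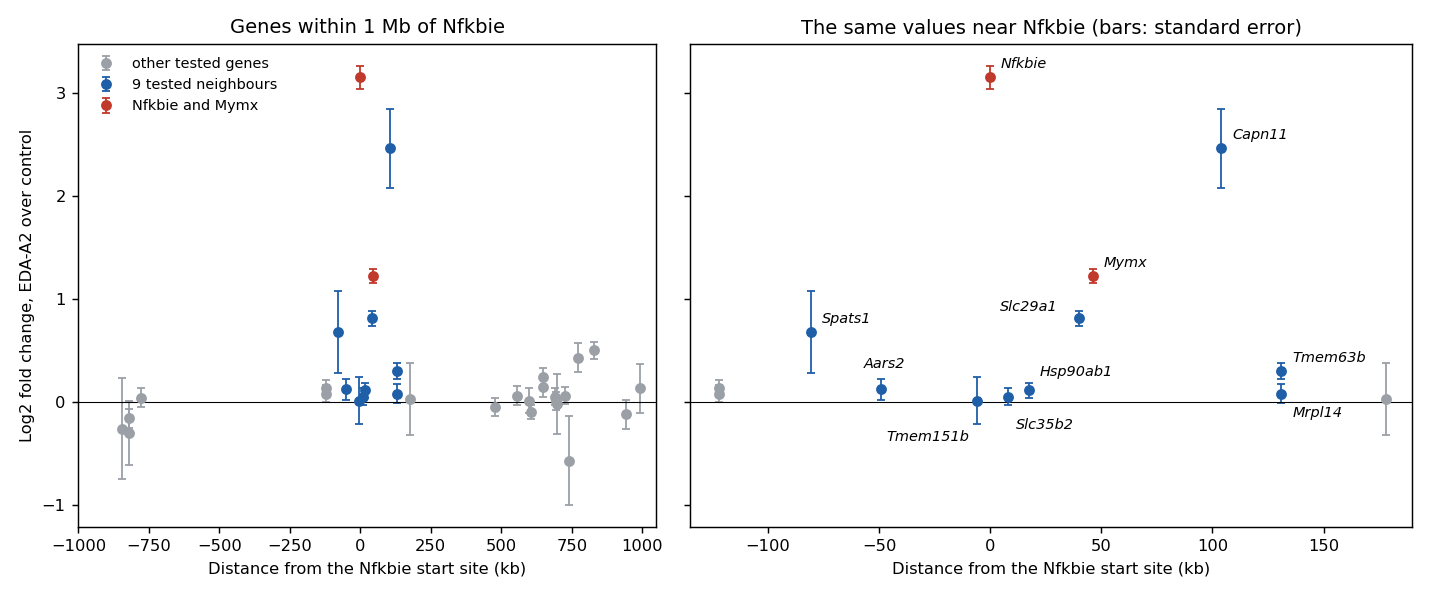
Fitted log2 fold change of EDA-A2 over control (y axis, bars are standard errors) against distance of the start site from that of Nfkbie in kb (x axis), for all tested genes within 1000 kb (left) and for the nearest stretch (right). The neighbours next to Nfkbie (Tmem151b, 0.01, and Slc35b2, 0.05) lie near 0, while Slc29a1 (0.81), Mymx (1.22) and Capn11 (2.46) lie farther out on 1 side.

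The fold changes did not fall off with distance from Nfkbie among the 9 neighbours tested. The nearest 3, Tmem151b, Slc35b2 and Hsp90ab1, had log2 fold changes of 0.01, 0.05 and 0.11. Slc29a1 at 40.1 kb had 0.81, Aars2 at 48.9 kb had 0.12, Spats1 at 80.7 kb had 0.68, Capn11 at 104 kb had 2.46, and Tmem63b and Mrpl14, both at 131 kb, had 0.30 and 0.08. Spearman's rho between distance and log2 fold change was 0.48 over the 9 (0.42 with Mymx, n = 10), a description over genes that share libraries. This rho dropped to 0.12 without EDA-A2 replicate 2. Spats1 (16 and 11 counts in control) and Capn11 (6 and 15) were low in counts, with standard errors of 0.40 and 0.38. Their places in the order are uncertain for that reason. The 3 called genes and Mymx all lie on the high-coordinate side of Nfkbie and on the minus strand, between the starts of Hsp90ab1 and Mrpl14. In that run Slc29a1, Mymx, Capn11 and Tmem63b follow each other with no other protein-coding gene in between. On the low-coordinate side no gene was called.

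Genes just outside the stretch had small fold changes. Cdc5l, a splicing factor gene 122 kb away on the low side, had 2165 and 2258 normalised counts in control and 2611 and 2218 after EDA-A2, with overlapping groups, a log2 difference of 0.13 ± 0.08 (SE). On the high side, the noncoding F630040K05Rik, 178 kb away, had 0.03 (standard error 0.35), and 1600014C23Rik, also at 178 kb, had 4 to 10 counts and was not tested. Inside the stretch, the 5 genes of the tables that are neither neighbours nor Nfkbie or Mymx are noncoding or pseudogenes. Of these B230354K17Rik had a log2 difference of 0.08 ± 0.08 (SE), and Gm9104, Gm17080, Gm25008 and Gm16172 had at most 5 counts in a library.

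Within 1000 kb of the Nfkbie start, 32 other genes were tested, 24 with a log2 fold change above 0 and 8 below. Within 100 kb all 7 were above 0 with a median of 0.12, and from 100 to 250 kb all 6 were above 0 with a median of 0.11. The 7 are all neighbours of the stretch or Mymx, selected on these same counts, and the 6 include Capn11, Tmem63b and Mrpl14. From 250 to 500 kb the 1 gene tested, Vegfa, had -0.05. From 500 to 1000 kb, 11 of 18 were above 0 with a median of 0.03. When the 9 neighbours and Mymx were set aside, 14 of the remaining 22 were above 0, with a median of 0.03, and 1 was called higher. That gene, Zfp318, a zinc finger protein gene 828 kb away, had 931.4 and 951.9 normalised counts in control and 1356 and 1315 after EDA-A2, a log2 difference of 0.50 ± 0.08 (SE). Over all 32 genes rho with distance was -0.41, the opposite sign of that among the neighbours alone. That value includes the selected genes, which lie nearest to Nfkbie, and no rho was computed for the 22 others.

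The same count was made around 6 other genes tied to NFκB that rose in these libraries, taking tested genes with a start within 250 kb. Around Nfkbie it gave 13 genes, 13 above 0, of which 4 were called higher, with a median of 0.12. Around Nfkb2 (log2 fold change 1.89), which encodes the p100 subunit, 8 of 13 were above 0 and 2 were called higher, the antisense transcript 4833438C02Rik (1.04) and the hedgehog pathway inhibitor Sufu (0.37), with a median of 0.03. Around Nfkbia (1.43), which encodes IκBα, 5 of 5 were above 0 and 1 was called higher, the noncoding Gm36634 (1.37), with a median of 0.21. DESeq2 called 4833438C02Rik and neither Sufu nor Gm36634. Both noncoding transcripts overlap the gene they neighbour on the other strand. The strand setting is unknown, and whether their counts hold reads of Nfkb2 or Nfkbia was not tested.

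Around Relb (0.99), an NFκB subunit, 8 of 19 were above 0, none was called higher and Bcam, an adhesion molecule, was called lower (-0.46). Around Mmp9 (1.97), a gelatinase, 7 of 18 were above 0 and the fast troponin C gene Tnnc2 was called lower (-0.40). Around Tnip1 (1.10), an NFκB feedback gene, 4 of 9 were above 0, and around Birc3 (4.03), which encodes cIAP2, 5 of 6 were. In each of these last 2 sets edgeR and DESeq2 called 0 genes and 1 gene had an unadjusted p under 0.05. Of the 7 loci, the one at Nfkbie thus had the most called neighbours, 3 of them its protein-coding neighbours described here and the other Mymx, as the choice of the stretch had it.

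**Figure D4:**
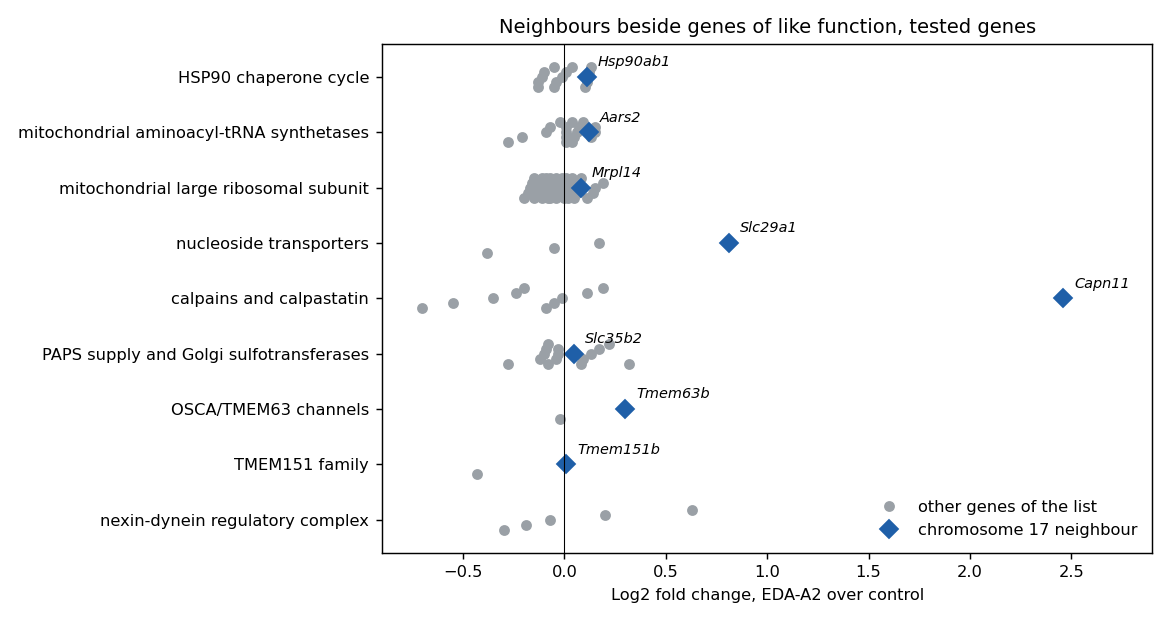
Fitted log2 fold change of EDA-A2 over control (x axis) for tested genes of 9 lists, 1 per neighbour by function (rows), with the chromosome 17 neighbour as a diamond and the other genes of its list as grey points. Slc29a1 at 0.81 and Capn11 at 2.46 lie to the right of every other gene of their lists, while Hsp90ab1, Aars2, Mrpl14 and Slc35b2 lie among theirs. Capn11 passed the count filter only through its treated libraries.

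Set beside genes of like function elsewhere in the genome, the neighbours divided. Slc29a1 rose while its closest relative moved the other way: Slc29a2, the equilibrative transporter ENT2, had 693.4 and 768.4 normalised counts in control and 551.8 and 571.0 after EDA-A2, and was called lower, at a log2 difference of -0.38 ± 0.10 (SE), by edgeR and not by DESeq2. Slc29a3, a lysosomal and mitochondrial member, had 0.17 and Slc29a4, a monoamine transporter, had -0.05, neither called. The other 3 of the 7 nucleoside transporters listed had too few counts to test.

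Among the calpains and calpastatin, 11 of 16 were tested, and Capn11 was the 1 called higher and 2 were called lower. Over all genes tested, 2.45% were called higher and 2.13% lower. Capn11 passed the filter only through its treated libraries, so its place in the list is partly set by the filter. With at least 10 counts in every library it was not tested. Capn6, a calpain without a working active site, had 4940 and 4183 normalised counts in control and 2345 and 3285 after EDA-A2, a log2 difference of -0.70 ± 0.12 (SE). Capn3, the muscle-specific calpain, had 1040 and 1153 against 720.4 and 772.5, a log2 difference of -0.55 ± 0.09 (SE). DESeq2 called Capn3 and Capn11 but not Capn6. Capn1, the ubiquitous µ-calpain, had -0.24 and was not called. The median of the 10 other genes was -0.15, with 8 of 10 below 0.

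Tmem63b was called higher, and its relative Tmem63a, at 1415 and 1435 normalised counts in control and 1416 and 1397 after EDA-A2, had a log2 difference of -0.02 ± 0.07 (SE). Tmem151b was level, while Tmem151a, its family member, was called lower by edgeR and not by DESeq2, from 468.8 and 555.6 to 395.0 and 363.6 normalised counts, a log2 difference of -0.43 ± 0.11 (SE).

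The housekeeping neighbours were like the rest of their lists in size. Among 15 genes of the HSP90 chaperone cycle, edgeR and DESeq2 called 0, none had an unadjusted p under 0.05, and log2 fold changes ran from -0.13 for the activator Ahsa1 to 0.13 for the kinase co-chaperone Cdc37, with 0.12 for the cyclophilin Ppid. The stress-inducible partner Hsp90aa1 had 18664 and 15964 normalised counts in control and 17069 and 16362 after EDA-A2, with overlapping groups. The median of the list was -0.01 and became 0.04 when libraries were scaled by total counts, a scaling that moved the median of all genes to 0.05.

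Of the 19 mitochondrial aminoacyl-tRNA synthetases, 14 were above 0 with a median of 0.04. Both tools called 0, and 1 had an unadjusted p under 0.05 on the lower side. Aars2, at 0.12, was near the top, and Nars2 (-0.28) and Yars2 (-0.21) were near the bottom. Of 49 proteins of the mitochondrial large ribosomal subunit, 18 were above 0 and 31 below, with a median of -0.04 (0.01 when scaled by total counts). Again both tools called 0, and 1 gene on each side had an unadjusted p under 0.05. Mrpl14, at 0.08, was among the higher ones, between Mrpl4 at 0.19 and Mrpl42 and Mrpl54 at -0.17 and -0.18.

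Around Slc35b2, 16 of 17 genes of PAPS supply and Golgi sulphation were tested, with a median of -0.03 (0.02 when scaled by total counts), none called by either tool and 1 with an unadjusted p under 0.05 on the lower side. Tpst2, a tyrosine sulphotransferase, had -0.28, Ust, a uronyl sulphotransferase, had 0.22, and Hs6st1, which sulphates heparan, had 0.09. Of the 8 genes listed for the nexin-dynein regulatory complex, to which Tcte1 belongs, 5 were tested. Iqcg had 53.6 and 54.5 normalised counts in control and 91.2 and 76.7 after EDA-A2, a log2 difference of 0.63 ± 0.23 (SE). Drc3 had 0.20 and Ccdc65 had -0.30, and none of the 5 was called by either tool, with 1 at an unadjusted p under 0.05.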

How the data were processed

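Bulk RNA sequencing of 4 libraries of mouse primary myotubes, 2 control and 2 treated with EDA-A2, was analysed. Per the labels, reads were checked with FastQC 0.11.9 and MultiQC 1.12, trimmed with Trim Galore 0.6.5, mapped to GRCm39 with STAR 2.7.3a and assigned to genes with HTSeq 0.11.1. The values the authors deposited are whole-number counts for each Ensembl gene in each library, neither normalised nor filtered. The annotation release and the strand option of the counting are not given in the sources used here. Pairs that HTSeq assigned to no gene did not enter library sizes: 6.68 to 7.4% of pairs fell in no gene, 0.946 to 0.986% were ambiguous and 4.56 to 4.76% did not map uniquely.

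Gene names, positions, start sites and exon lengths came from GENCODE (GRCm39), which matched 52610 of 53647 genes. Counts were fitted in R 4.3.3 with edgeR 4.0.16 (TMM, glmQLFit and glmQLFTest, condition as the only term) and adjusted by the Benjamini-Hochberg method at 0.05. The filter, filterByExpr, asked for about 10 counts in as many libraries as a group has, and 15 in total. A standard error is the log2 fold change over the square root of F. The start site of a gene is that of its canonical transcript. Steps were tested on simulated counts. Replicates differed by more than sampling noise (chi-square per gene 10.1 for control and 4.74 for EDA-A2).

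The members of the stretch and the gene lists were chosen with earlier results of these data known. Named genes were the 10 neighbours, Nfkbie and Mymx, other genes of the stretch with 10 counts in a library, genes called within 1000 kb, up to 3 genes per function list by p-value (1 such gene is not reported here), and 6 comparison loci. Hsp90aa1, Cdc5l, F630040K05Rik, 1600014C23Rik and genes with under 10 counts in the stretch were named after their values were seen, as were genes called within 250 kb of the comparison loci. Alternatives were other scalings (DESeq2 size factors, upper quartile, total counts), other filters, a replicate block, the DESeq2 1.42.0 Wald test and leaving out each library. Promoter sequences came from RefSeq (GRCm38.p6), with 9 of 12 genes matched.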

Additional observations from a re-analysis of the deposited data

How the results depend on the processing

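With DESeq2 size factors, upper quartile factors, at least 10 counts in every library and the DESeq2 Wald test, the counts of genes called (all genes, neighbours and genes within 1000 kb) stayed within 1.5 times and the fold changes and medians recomputed within 1 SD of the values given, except that the calpain median was -0.15 under the count filter. DESeq2 did not call Sufu, Gm36634, Slc29a2, Capn6 and Tmem151a. The SD is that of the same value over the pairings of an EDA-A2 library with a control library. Over all alternatives, 244 values for single genes, lists and loci moved by less than these limits and 19 by more. Of the main values (genes called, medians of the neighbours and within 1000 kb, and rho), 51 stayed within the limits and 26 did not. With total counts, 194 genes were called lower in place of 323, and the median was 0.17 for the neighbours and 0.11 for genes within 1000 kb. Without a filter beyond 1 count, 25545 genes were tested, 64 were called higher and 22 lower, 1 neighbour was called (Slc29a1) and 2 genes within 1000 kb. With at least 10 counts in every library, Capn11 was not tested. The replicate numbers share no origin in the labels, and deviations of libraries with the same number correlated at 0.0598. With a replicate block, 537 genes were called higher and 529 lower, and the same 3 neighbours were called. Leaving out 1 library, with the lone library assumed to vary like the other group, gave 7 to 223 genes called higher, 0 to 193 lower, 0 to 2 neighbours, and 0 to 4 genes within 1000 kb. The fits without a control replicate gave the fewest calls, in the whole table as well as within 1000 kb. The neighbour median then ran from 0.19 to 0.22, that within 1000 kb from 0.06 to 0.12, and rho from 0.12 to 0.63; the cause was not tested. The sign turned for Slc35b2 (without control replicate 1 or EDA-A2 replicate 2), Tmem151b (without control replicate 2 or EDA-A2 replicate 1) and Mrpl14 (without EDA-A2 replicate 2). Counts of 6 to 66 for Capn11 and 11 to 24 for Spats1 limit their precision, and 2 libraries per group limit every value.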
